A study of Mus musculus with 7 samples.

Results

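Of 20643 genes measured by total RNA-seq in 7 libraries of mouse prospermatogonia, 46 named genes stood clearly higher in both homozygous terminator mutants than in wild-type (WT) cells, and they are described here. They were chosen by measured values. For each gene the highest WT library was subtracted from the lowest of the 5 mutant libraries on the log2 CPM scale (counts per M read pairs), and the gene was kept when this gap was at least 1.5 and the mutant mean was at least 1. A further 31 genes that passed on values were left out by name, of which 14 had no symbol and 17 had a Gm, Rik or ps name. Because the mutant and WT values chose the genes, every difference from WT given for them is a description and carries no test. The mirror rule, lower in both mutants, gave 4 genes.

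The libraries came from EGFP+ germ cells sorted from fetal testes at 15.5 dpc (the source name writes 15 dpc), 2 from WT, 2 from H19Ter/H19Ter and 3 from H19Ter+neo/H19Ter+neo fetuses. In both mutants a transcription terminator cassette was inserted on chromosome 7 ahead of the imprinting control region (ICR) of H19/Igf2, and H19Ter+neo also keeps the Pgkneo selection cassette that Cre removed from H19Ter. The mutants go back to 129 ES cells, with chimeras from a single ES cell line, and were bred to the TgOG2 line (B6;CBA), in which the Pou5f1 promoter drives EGFP. Testes were pooled for digestion, and the litter and strain background of each library, WT included, could not be found in the labels or methods. Genotype therefore cannot be told apart from strain background, litter or line, and p-values measure the spread between these libraries. Read pairs counted to genes were 45.1 and 45.9 M in WT, 51.2 and 37.5 M in H19Ter, and 84.1 to 87.3 M in H19Ter+neo.

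Prospermatogonia are fetal male germ cells that stop dividing in the testis cords and then place new DNA methylation over most of the genome, including the paternal imprints. Many genes of other tissues are nearly silent in them, so a gene of neurons, immune cells or connective tissue is usually read at the bottom of the range. H19, the noncoding RNA beside the ICR, did not separate the genotypes here, with log2 CPM means of 5.50 in WT, 5.53 in H19Ter and 5.27 in H19Ter+neo (limma, adjusted p = 0.876 and 0.102 against WT). Dazl, an RNA-binding protein that marks germ cells, lay between 9.58 and 10.2 log2 CPM in all 7 libraries.

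The 46 genes were low in WT. Their median of WT means was -0.56 log2 CPM, against 2.81 for all genes, and 32 of 46 (69.6%) had a WT mean below 0, against 21.4% of all genes. Their median was 2.01 in H19Ter and 2.0 in H19Ter+neo. The gap ran from 1.51 to 5.03 with a median of 1.73, and the mean difference from WT had a median of 2.29 in H19Ter and 2.54 in H19Ter+neo. Per kilobase of exon, 45 of 46 were below 1 RPKM in WT, against 32.8% of all genes. In the mutants 21 of 46 reached 1 RPKM, against 69.3% of all genes. The medians of the 46 were 0.138 RPKM in WT and 0.773 RPKM in the mutants. All but 1 had at least 50 read pairs in every mutant library, against 76% of all genes. The mutant mean that the rule required favours such counts. Across all 20643 genes, 24.1% had all 5 mutant libraries above both WT libraries.

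**Figure D1:**
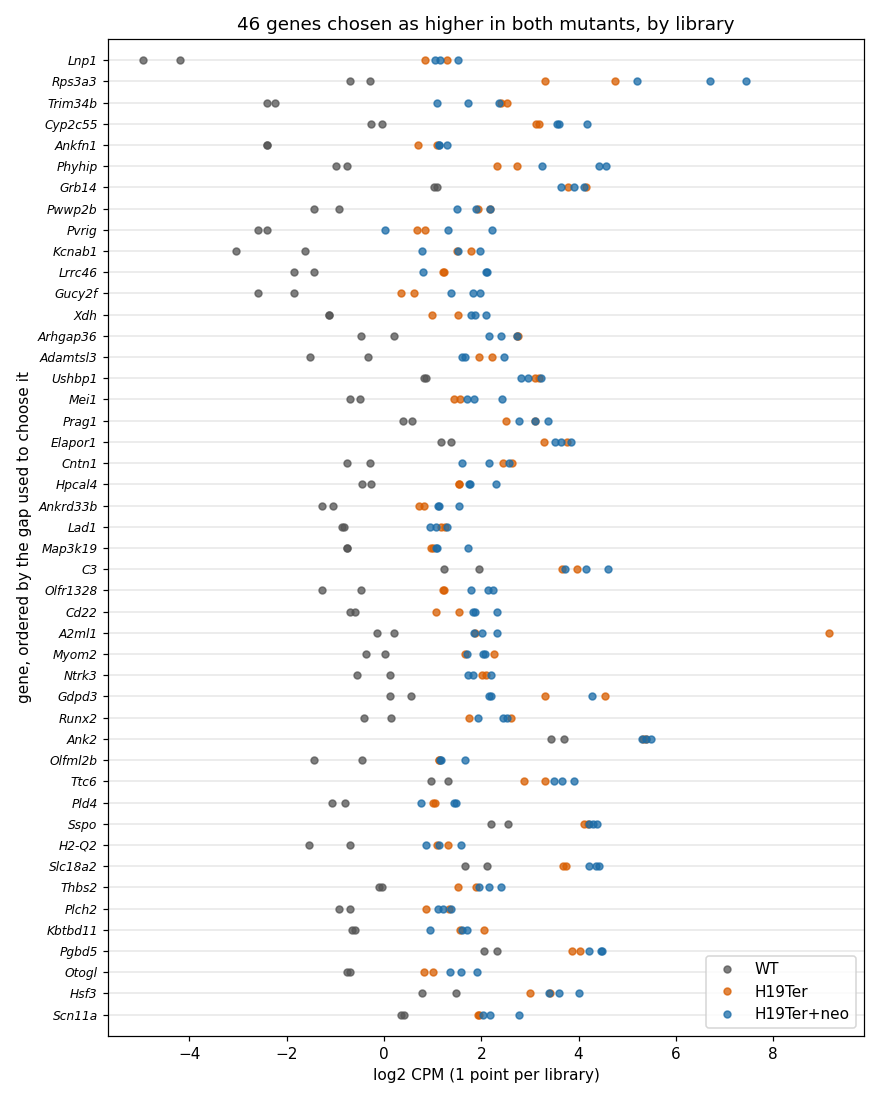
Log2 CPM of the 46 chosen genes in each of the 7 libraries, 1 point per library, coloured by genotype and ordered by the gap that chose them. WT points lie left of all mutant points in every row because the rule required it, the gap narrows from 5.03 for Lnp1 to 1.51 for Scn11a, and A2ml1 has 1 H19Ter point at 9.15, far from the other mutant points.

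The edge of the rule fell within a continuous range. Just inside it were Otogl, Hsf3 and Scn11a with gaps of 1.515, 1.513 and 1.509, and just outside were Cacna1c and Abi3bp with gaps of 1.498 and 1.479. Cacna1c, the pore subunit of an L-type calcium channel, was at 2.03 and 1.65 log2 CPM in WT and 3.52 to 3.93 in the mutants. A gap of 1 would have taken 156 genes and a gap of 2 only 13. The rule gave 108 genes without WT replicate 1, 71 without H19Ter replicate 4 and 57 without WT replicate 2. All 46 were among them each time. Leaving out a library can only keep or widen a gap, so such counts mostly grow. The fewest of the 46 stayed without H19Ter+neo replicate 7, at 44. Adding 1 CPM to the linear values before taking logs shrinks differences at low levels and left 7 genes.

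The gene with the widest gap, Lnp1 (ENSMUSG00000109588, chromosome 16, 56914344 to 56928061, minus strand), is known as a fusion partner of the nucleoporin NUP98 in leukaemia. It had 0 and 1 read pairs in WT, 129 and 68 in H19Ter, and 231, 177 and 190 in H19Ter+neo. WT and mutant libraries did not approach each other, and the mutants overlapped. With read pairs pooled by genotype, its scaled ratio to WT was 191 in H19Ter (95% counting interval 33.9 to 7591, exact) and 209 in H19Ter+neo (37.4 to 8286). These intervals cover counting error only and are wide because the WT value is a single read pair. They are no test of the difference from WT, since that difference chose Lnp1.

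Rps3a3 (ENSMUSG00000059751, chromosome 13, 108670603 to 108671397, plus strand) was the only pseudogene among the 46, a processed copy related to ribosomal protein S3A. In Rps3a3 the log2 CPM values were -0.71 and -0.29 in WT, 3.31 and 4.75 in H19Ter, and 6.70, 7.45 and 5.20 in H19Ter+neo. All mutant libraries were above WT, and the H19Ter+neo libraries were all above the H19Ter ones. The parent gene Rps3a1 stayed between 8.73 and 9.29 log2 CPM in all 7 libraries, and the other copy Rps3a2 was at 1.82 and 2.23 in WT against 2.17 to 3.98 in the mutants. Reads of near-identical copies can be split between them, so the level of Rps3a3 is uncertain.

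Trim34b (ENSMUSG00000090215, chromosome 7, 104329471 to 104336909, plus strand) encodes a member of the tripartite motif family of ubiquitin ligases. Trim34b read -2.41 and -2.24 log2 CPM in WT, against 2.40 and 2.53 in H19Ter and 1.74, 1.09 and 2.37 in H19Ter+neo. Its close relative Trim34a, on the same chromosome and strand and named here after its values were seen, went the other way, at 3.0 and 3.13 in WT, 2.12 and 2.12 in H19Ter, and 2.48, 2.69 and 1.61 in H19Ter+neo. Summed over both genes the level was 8.15 and 8.92 CPM in WT, 9.58 and 10.03 CPM in H19Ter, and 8.83, 8.54 and 8.16 CPM in H19Ter+neo. The sum thus overlapped between WT and H19Ter+neo while Trim34b alone was at most 0.180 CPM in WT and at least 2.10 CPM in the mutants. The part of read assignment between the copies in this difference was not tested.

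Cyp2c55, a cytochrome P450 that oxidises fatty acids, had the next widest gap among protein-coding genes. Cyp2c55 was at -0.26 and -0.04 log2 CPM in WT, 3.18 and 3.13 in H19Ter, and 3.57, 3.59 and 4.18 in H19Ter+neo. The genotypes formed 3 separate ranges with H19Ter+neo on top. Of its exonic bases, 3.2% overlapped a gene on the opposite strand.

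The 250 bases ahead of the RefSeq start on GRCm38.p6 are shown for the 4 genes with the widest gaps that have an entry, because these genes lay farthest from WT. Their CpG content does not cover that of all 34 genes with an entry, in which the ratio of observed to expected CpG reached 1.01 in Pgbd5. Capitals mark CpG and, on the printed strand, the TATA box letters TATAAA. They are Lnp1 (chr16:56927940-56928189, minus strand), Trim34b (chr7:104329221-104329470, plus strand), Cyp2c55 (chr19:39006769-39007018, plus strand) and Grb14 (chr2:65022767-65023016, minus strand).
Lnp1: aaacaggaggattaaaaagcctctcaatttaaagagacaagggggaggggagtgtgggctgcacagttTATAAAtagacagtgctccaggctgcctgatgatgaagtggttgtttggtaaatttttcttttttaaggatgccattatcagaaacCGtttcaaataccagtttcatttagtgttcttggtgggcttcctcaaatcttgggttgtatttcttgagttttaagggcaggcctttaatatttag
Trim34b: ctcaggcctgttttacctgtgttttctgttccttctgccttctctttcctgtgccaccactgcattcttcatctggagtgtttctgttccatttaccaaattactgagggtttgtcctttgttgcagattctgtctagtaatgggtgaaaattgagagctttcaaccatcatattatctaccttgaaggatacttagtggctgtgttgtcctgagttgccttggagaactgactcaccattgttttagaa
Cyp2c55: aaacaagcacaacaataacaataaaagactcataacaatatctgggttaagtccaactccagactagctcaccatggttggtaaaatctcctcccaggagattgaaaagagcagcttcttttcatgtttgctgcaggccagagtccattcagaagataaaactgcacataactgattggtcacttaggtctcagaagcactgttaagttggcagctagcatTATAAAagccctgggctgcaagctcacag
Grb14: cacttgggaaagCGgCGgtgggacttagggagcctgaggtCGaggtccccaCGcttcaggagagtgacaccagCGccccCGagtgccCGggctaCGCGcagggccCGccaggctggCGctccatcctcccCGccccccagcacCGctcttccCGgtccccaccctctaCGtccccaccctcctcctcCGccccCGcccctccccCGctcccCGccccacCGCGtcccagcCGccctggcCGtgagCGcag

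The window of Lnp1 held 1 CpG, those of Trim34b and Cyp2c55 held 0, and that of Grb14 held 24. TATAAA began 29 bases ahead of the start in Cyp2c55, a usual distance for a TATA box, and 182 bases ahead in Lnp1. Of the 46 genes, 34 had an entry, Phyhip, Lrrc46, Xdh, Myom2, Ankfn1, Prag1, Map3k19, Kbtbd11, Ntrk3, Rps3a3, Pwwp2b and Otogl having none. In windows of 300 bases (250 ahead of the start and 50 after it) the median ratio of observed to expected CpG was 0.299 in the 34 genes and 0.729 in all 12687 genes with an entry. A ratio of at least 0.6 was found in 9 of 34 (26.5%) and in 65.6% of all genes. Weakly expressed genes were CpG-poor too. Among the 1879 with a WT mean below 0 the median ratio was 0.360 and 27.4% reached 0.6, against a median of 0.230 and 5 of 21 (23.8%) for the chosen genes with such a mean.

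**Figure D2:**
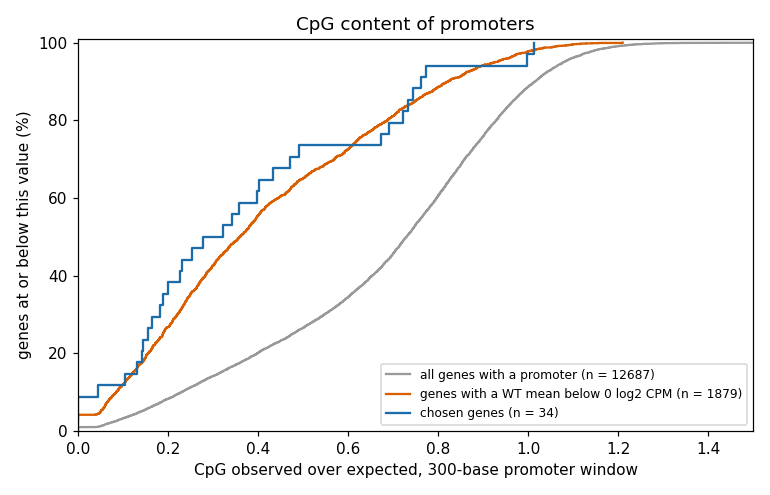
Cumulative share of genes (%) against the ratio of observed to expected CpG in the 300-base promoter window, for all 12687 genes with an entry, the 1879 of them with a WT mean below 0 log2 CPM, and 34 chosen genes. The curve of the chosen genes lies near that of the weakly expressed genes, and both lie left of the curve of all genes, with medians of 0.299, 0.360 and 0.729.

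Among motifs searched on both strands, TATAAA was in 7 of 34 windows (20.6%; Ank2, A2ml1, Thbs2, Lnp1, H2-Q2, C3 and Cyp2c55) against 7.78% of all windows. Among genes with a WT mean below 0 it was in 4 of 21 (19.05%) against 12.8%. The GATA letters AGATAA were in 5 of 34 (14.7%) against 6.93%, and in 4 of 21 (19.05%) against 11.6% of the weakly expressed genes. The GC box GGGCGG was in 10 of 34 (29.4%) against 60.6% (7 of 21 against 38.3% where the WT mean was below 0), the CCAAT box in 10 of 34 (29.4%) against 39.1% (7 of 21 against 34.7%), and the E2F6 letters TCCCGC in 6 of 34 (17.6%) against 33.8% (2 of 21 against 19.4%). The ETS letters CCGGAAG were in 1 of 34 (2.94%) against 16.2%, the E-box CACGTG in 1 (2.94%) against 9.93%, the cAMP response element TGACGTCA in 1 (2.94%) against 3.04%, the AP-1 letters TGANTCA in 2 (5.88%) against 5.06% and the NRF1 letters GCATGCGC in 0 against 5.04%. The AP-1 search can overlap the ends of other motifs, and a match is a string of letters and not a shown binding site.

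By known role, a grouping made after the values were seen, 7 of the 46 genes belong to signalling. Grb14 is an adaptor that binds the insulin receptor and inhibits its kinase. In Grb14 the log2 CPM values were 1.03 and 1.08 in WT, 3.78 and 4.15 in H19Ter, and 3.90, 3.65 and 4.12 in H19Ter+neo. The mutants overlapped, with mean differences from WT of 2.91 in H19Ter and 2.83 in H19Ter+neo. Arhgap36, which inhibits protein kinase A and raises hedgehog signalling in other cells, and Prag1, a pseudokinase that binds signalling proteins, were likewise low in WT. Arhgap36 read -0.47 and 0.21 log2 CPM in WT, against 2.73 and 2.76 in H19Ter and 2.16, 2.42 and 2.73 in H19Ter+neo. Prag1 was at 0.57 and 0.39 log2 CPM in WT, 3.10 and 2.51 in H19Ter, and 3.10, 2.78 and 3.37 in H19Ter+neo. In both genes the mutants overlapped. Ntrk3, the receptor for neurotrophin-3, was weak for its length at 0.130 RPKM in the mutants. In Ntrk3 the log2 CPM values were 0.11 and -0.55 in WT, 2.02 and 2.10 in H19Ter, and 1.82, 1.73 and 2.20 in H19Ter+neo. Map3k19, a kinase of the MAP kinase cascade, was at -0.76 and -0.75 in WT and 0.96 to 1.72 in the mutants, and Plch2, a phospholipase C that makes second messengers, at -0.93 and -0.70 against 0.86 to 1.37. Gucy2f, a guanylate cyclase known from photoreceptors, separated the mutants as well. Gucy2f read -2.59 and -1.84 log2 CPM in WT, against 0.62 and 0.35 in H19Ter and 1.82, 1.38 and 1.97 in H19Ter+neo. Its lowest H19Ter+neo library was above both H19Ter libraries.

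Proteins of the nucleus gave 4 genes. Runx2 is the transcription factor that sets bone formation, and Hsf3 belongs to the heat shock factors. Runx2 was at 0.14 and -0.41 log2 CPM in WT, 1.76 and 2.61 in H19Ter, and 1.93, 2.44 and 2.54 in H19Ter+neo. In Hsf3 the log2 CPM values were 0.77 and 1.48 in WT, 3.0 and 3.41 in H19Ter, and 3.40, 3.59 and 4.01 in H19Ter+neo. In Runx2 the mutants overlapped, and 5.9% of its exonic bases overlapped an opposite-strand gene, Runx2os1. Pwwp2b has a PWWP domain, a chromatin-binding fold, and Pgbd5 is a domesticated relative of the piggyBac transposase. Pwwp2b read -1.45 and -0.93 log2 CPM in WT, against 1.94 and 2.18 in H19Ter and 1.49, 1.89 and 2.18 in H19Ter+neo. Pgbd5 was at 2.07 and 2.33 log2 CPM in WT, 4.03 and 3.86 in H19Ter, and 4.21, 4.48 and 4.45 in H19Ter+neo. Pgbd5 was the only one of the 46 above 1 RPKM in WT (1.09 RPKM), and its mutant mean was 4.45 RPKM.

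Another 7 genes are best known from neurons and excitable cells. Kcnab1, a beta subunit of voltage-gated potassium channels, had only 13 and 4 read pairs in WT. In Kcnab1 the log2 CPM values were -1.63 and -3.04 in WT, 1.5 and 1.78 in H19Ter, and 1.52, 1.98 and 0.78 in H19Ter+neo. Cntn1, a cell adhesion molecule of axons, and Hpcal4, a neuronal calcium sensor, were below 0 log2 CPM in both WT libraries. Cntn1 read -0.76 and -0.29 log2 CPM in WT, against 2.64 and 2.45 in H19Ter and 1.61, 2.57 and 2.16 in H19Ter+neo. Hpcal4 was at -0.26 and -0.46 log2 CPM in WT, 1.54 and 1.53 in H19Ter, and 1.77, 1.75 and 2.30 in H19Ter+neo. In Cntn1 the mutants overlapped, while in Hpcal4 the 3 H19Ter+neo libraries were above both H19Ter ones. Ank2, an ankyrin that anchors membrane proteins to the cytoskeleton, had the narrowest mutant range of the 46. In Ank2 the log2 CPM values were 3.71 and 3.44 in WT, 5.38 and 5.32 in H19Ter, and 5.50, 5.31 and 5.38 in H19Ter+neo. The 5 mutant libraries spanned 0.186 log2 units. Slc18a2, the vesicular monoamine transporter that loads dopamine and serotonin into vesicles, was already read in WT. Slc18a2 read 2.12 and 1.67 log2 CPM in WT, against 3.74 and 3.68 in H19Ter and 4.21, 4.35 and 4.42 in H19Ter+neo. Here the 3 genotypes held separate ranges. Phyhip, a protein of the brain that binds phytanoyl-CoA hydroxylase, had the largest difference between the mutants among those called in coding genes. Phyhip was at -1.0 and -0.75 log2 CPM in WT, 2.31 and 2.74 in H19Ter, and 3.24, 4.58 and 4.43 in H19Ter+neo. Scn11a, the sodium channel of pain-sensing neurons, lay at the edge of the rule with 0.36 and 0.42 in WT and 1.93 to 2.78 in the mutants.

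Extracellular matrix and secreted structural proteins gave 5 genes. Thbs2 encodes thrombospondin-2, which restrains blood vessel growth, and Sspo encodes SCO-spondin of the cerebrospinal fluid. In Thbs2 the log2 CPM values were -0.11 and -0.04 in WT, 1.89 and 1.52 in H19Ter, and 2.16, 1.96 and 2.41 in H19Ter+neo. Sspo read 2.55 and 2.20 log2 CPM in WT, against 4.19 and 4.12 in H19Ter and 4.30, 4.38 and 4.22 in H19Ter+neo. In both genes the H19Ter+neo libraries were above both H19Ter libraries. Adamtsl3, a matrix glycoprotein related to the ADAMTS proteases, was at -0.34 and -1.53 in WT and 1.61 to 2.47 in the mutants. Otogl, known from the gel matrices of the inner ear, was at -0.76 and -0.70 against 0.82 to 1.91, and Olfml2b, an olfactomedin-domain protein of the matrix, at -1.45 and -0.46 against 1.13 to 1.67.

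Immune and complement proteins gave 7 genes, Trim34b included, and among them the widest mutant range of the 46. A2ml1 encodes a protease inhibitor related to alpha-2-macroglobulin. A2ml1 was at 0.20 and -0.14 log2 CPM in WT, 9.15 and 1.88 in H19Ter, and 2.02, 1.85 and 2.33 in H19Ter+neo. It had 30336 read pairs in H19Ter replicate 3 and 141 in H19Ter replicate 4, so its H19Ter mean of 5.52 rests on 1 library, while the other 4 mutant libraries lay between 1.85 and 2.33. C3, the central component of complement, was more even. In C3 the log2 CPM values were 1.95 and 1.24 in WT, 3.97 and 3.66 in H19Ter, and 3.71, 4.16 and 4.62 in H19Ter+neo. Pvrig and Cd22, inhibitory receptors of lymphocytes, were below 0 in WT. Pvrig read -2.59 and -2.40 log2 CPM in WT, against 0.69 and 0.84 in H19Ter and 2.22, 0.01 and 1.31 in H19Ter+neo. Cd22 was at -0.61 and -0.70 log2 CPM in WT, 1.54 and 1.07 in H19Ter, and 1.86, 1.84 and 2.33 in H19Ter+neo. Pvrig spread over more than 2 log2 units within H19Ter+neo, whereas in Cd22 H19Ter+neo was above H19Ter in every library. H2-Q2, a class I histocompatibility gene with near-identical neighbours whose reads may be shared, was at -1.54 and -0.70 in WT and 0.87 to 1.59 in the mutants. Pld4, a nuclease of the endolysosome in immune cells, was at -1.06 and -0.81 against 0.77 to 1.49.

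Metabolic enzymes besides Cyp2c55 were Xdh, which makes uric acid from purines, and Gdpd3, a lysophospholipase D. In Xdh the log2 CPM values were -1.13 and -1.12 in WT, 0.99 and 1.52 in H19Ter, and 1.79, 1.88 and 2.10 in H19Ter+neo. Gdpd3 read 0.55 and 0.12 log2 CPM in WT, against 3.31 and 4.55 in H19Ter and 2.20, 4.28 and 2.16 in H19Ter+neo. Gdpd3 was uneven within each mutant, and 13.6% of its exonic bases overlapped a gene on the opposite strand. Mei1, needed for the DNA breaks that start meiotic recombination, has an established role in germ cells. Mei1 was at -0.71 and -0.50 log2 CPM in WT, 1.44 and 1.57 in H19Ter, and 1.70, 1.84 and 2.43 in H19Ter+neo. The H19Ter+neo libraries were all above the H19Ter ones, and both were above WT.

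Epithelial and muscle proteins gave 3 genes. Ushbp1 encodes a binding partner of harmonin, the product of an Usher syndrome gene, and Lad1 encodes ladinin of basement membranes. In Ushbp1 the log2 CPM values were 0.86 and 0.82 in WT, 3.19 and 3.10 in H19Ter, and 2.81, 3.23 and 2.96 in H19Ter+neo. Lad1 read -0.82 and -0.87 log2 CPM in WT, against 1.26 and 1.17 in H19Ter and 1.07, 0.94 and 1.29 in H19Ter+neo. Values were tight within each genotype, and the mutants overlapped in both. Myom2, a protein of the sarcomere M-band in muscle, was at 0.02 and -0.37 in WT and 1.66 to 2.26 in the mutants.

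Genes whose function is less well known were Ankfn1, Lrrc46, Ankrd33b, Ttc6, Kbtbd11, Elapor1 and the olfactory receptor Olfr1328. Ankfn1 had the widest gap of these. Ankfn1 was at -2.41 and -2.40 log2 CPM in WT, 0.70 and 1.09 in H19Ter, and 1.13, 1.12 and 1.29 in H19Ter+neo. In Lrrc46 the log2 CPM values were -1.85 and -1.44 in WT, 1.23 and 1.22 in H19Ter, and 0.81, 2.12 and 2.09 in H19Ter+neo. Both were below -1.4 in each WT library. Elapor1, a protein of endosomes and lysosomes linked to autophagy, and Ttc6, a tetratricopeptide repeat protein, had at least 86 read pairs in each WT library. Elapor1 read 1.18 and 1.37 log2 CPM in WT, against 3.76 and 3.30 in H19Ter and 3.51, 3.65 and 3.85 in H19Ter+neo. Ttc6 was at 0.97 and 1.31 log2 CPM in WT, 3.32 and 2.88 in H19Ter, and 3.65, 3.5 and 3.91 in H19Ter+neo. The mutants overlapped in Elapor1 and not in Ttc6. The values of Ankrd33b were -1.28 and -1.05 in WT and 0.73 to 1.54 in the mutants, those of Olfr1328 -0.47 and -1.27 against 1.22 to 2.25, and those of Kbtbd11 -0.66 and -0.60 against 0.95 to 2.06. Kbtbd11 shares 24.8% of its exonic bases with a gene on the opposite strand, and neither labels nor methods give the strand setting of the counting.

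The rule did not compare H19Ter+neo with H19Ter, and this difference is read here to ask what the retained Pgkneo cassette goes with. It did use the values of both mutants, through their lowest library and their mean. The choice of the 46 genes is therefore not independent of this difference. Shares of the 46 set beside those of all genes are descriptions, and the part of the rule in them was not tested. With limma across all 20643 genes, 11 of the 46 genes (23.9%) were higher in H19Ter+neo at an adjusted p under 0.05 and 0 were lower, against 12.5% and 15.2% of all genes. At an unadjusted p under 0.05 the lower genes were 2, A2ml1 and Trim34b, and limma-voom on the recovered read pairs gave 6 higher and 0 lower. The median difference over the 46 was 0.24, against 0.01 over all genes, and 31 of 46 differences were above 0. H19Ter+neo was above H19Ter in every library for 20 of 46 genes (43.5%), against 28.2% of all genes, and below in every library for 1, Trim34b, against 28.1%. The H19Ter+neo libraries were also deeper, and the part of depth in this difference was not tested.

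The calls among the 46 were led by Rps3a3 at 2.42 ± 0.56 (SE) log2 (adjusted p = 0.00998), Phyhip at 1.55 ± 0.33 (0.00745) and Gucy2f at 1.24 ± 0.29 (0.0108), the 3 that passed by at least 2-fold. Olfr1328 was higher by 0.84 ± 0.25 (adjusted p = 0.0337), Cd22 by 0.71 ± 0.22 (0.0392), Otogl by 0.70 ± 0.22 (0.0380) and Xdh by 0.67 ± 0.22 (0.0429). Cyp2c55 was higher by 0.63 ± 0.19 (adjusted p = 0.0318), Slc18a2 by 0.62 ± 0.14 (0.00905), Ttc6 by 0.58 ± 0.18 (0.0330) and Pgbd5 by 0.44 ± 0.12 (0.0259). All p-values are from limma with Benjamini-Hochberg adjustment, n = 3 against 2. In each of these 11 genes the 3 H19Ter+neo libraries were above both H19Ter libraries. The calls depended on single libraries, as the count fell from 11 to 2 without H19Ter replicate 3, 3 without H19Ter replicate 4, 4 without H19Ter+neo replicate 7 and 7 without H19Ter+neo replicate 6.

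**Figure D3:**
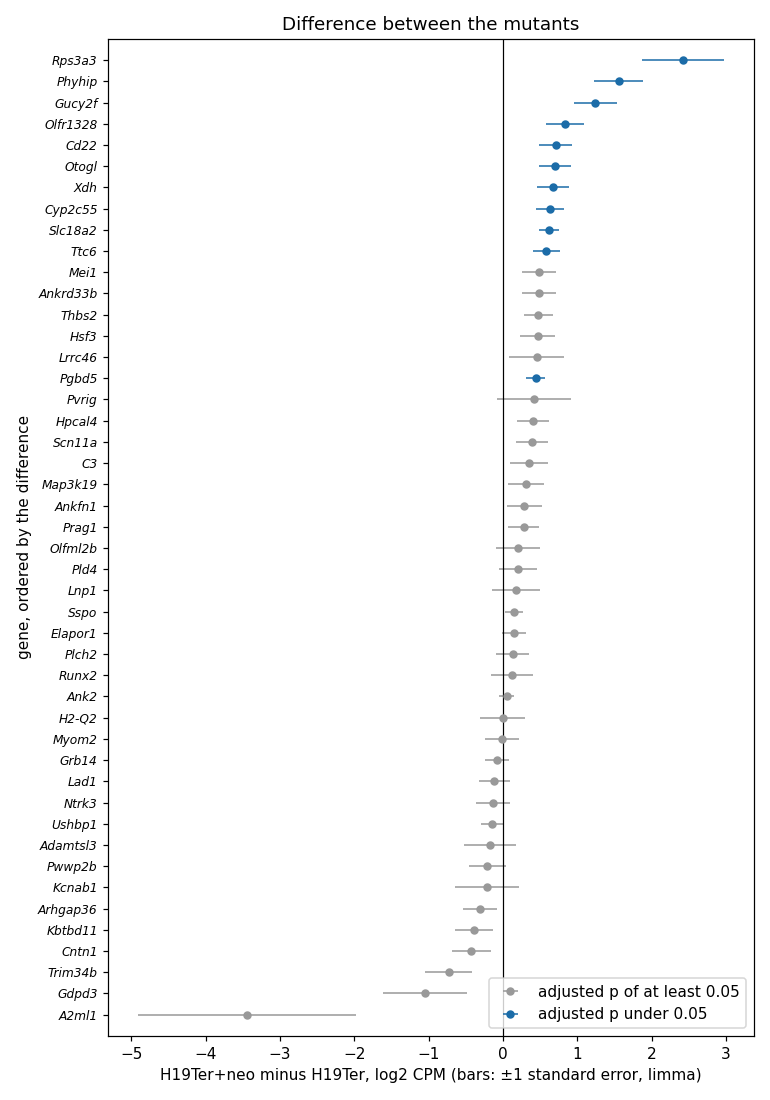
H19Ter+neo minus H19Ter in log2 CPM for each of the 46 genes, with bars of 1 standard error from limma and blue points for an adjusted p under 0.05. The 11 blue points all lie right of 0, between 0.44 for Pgbd5 and 2.42 for Rps3a3, and A2ml1 at -3.45 has the widest bar.

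The other 35 genes did not pass, and 33 of the 46 differences were under 0.5 in size. Grb14 differed by -0.08 ± 0.16 and Ank2 by 0.05 ± 0.10. A2ml1, at -3.45 ± 1.47 (adjusted p = 0.106), had the largest difference in size and did not pass. Without H19Ter replicate 4 the H19Ter value was replicate 3 alone and A2ml1 was called lower at -7.09 (limma, adjusted p = 1.38e-06), and without replicate 3 the difference was 0.19. Gdpd3, at -1.05 ± 0.56 (adjusted p = 0.194), and Trim34b, at -0.73 ± 0.32 (0.111), were the others below -0.5.

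By position the 46 genes lay on the X chromosome and on every autosome but chromosome 18. Chromosome 7, which carries the insertion, held 6 (13.0%, against 7.84% of all genes), Cd22, Ntrk3, Adamtsl3, Trim34b, Gdpd3 and Pwwp2b. A share above that of all genes was not particular to it. Chromosomes 8 and 17 held 5 each (10.9%, against 5.14% and 4.65% of all genes). Within 10 Mb of the insertion site lay 1 of the 46, Pwwp2b, of 162 measured genes, and within 20 Mb 2, of 328. Pwwp2b starts 3.33 Mb before the insertion site, and 2 neighbours, named after their values were seen, were also higher. Lrrc27, 5.50 kb away, was at 3.41 and 3.17 in WT and 4.80 to 5.24 in the mutants. Stk32c, 35.2 kb away on the opposite strand, was at -1.28 and -2.40 against 0.35 to 0.98, and its mutant mean of 0.79 kept it out of the group. Pwwp2b had no overlap between mutants and WT because the rule required it. The 2 neighbours were picked by their values, so their lack of overlap is no result about the region. The other measured neighbours of Pwwp2b within 50 kb, on the opposite strand, had gaps of 0.69 and 0.22. Of all genes, 24.1% had all 5 mutant libraries above both WT libraries. An effect of position was not tested.

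The only pair of the 46 within 1 Mb of each other was Kbtbd11 and Myom2 on chromosome 8, 24.3 kb apart on the same strand. Within 50 kb of the 46 genes there were 110 other measured genes, next to 39 of the 46, some of them inside longer genes. Their median difference from WT was 0.12 in H19Ter and 0.14 in H19Ter+neo, and 44 (40%) had all mutant libraries above WT, against the 24.1% of all genes. A gap of at least 1.5 was found in 5 of them (4.55%). Of all 20643 genes, 77 had this gap together with a mutant mean of at least 1, a stricter rule. The 5 include genes that overlap Elapor1 and Ank2 on the same strand, and the part of reads of the longer gene in their levels was not tested. Another of the 5, chosen after the values were seen, was Klrb1a, a receptor of natural killer cells 27.6 kb from A2ml1. Klrb1a was at -2.59 and -1.73 in WT and 0.09 to 1.30 in the mutants. Foxa1, a transcription factor 17.2 kb from Ttc6 on the opposite strand, was at 1.37 and 1.02 against 2.74 to 3.31. Other neighbours were lower in the mutants. The tripartite motif genes Trim12a and Trim5 beside Trim34b differed from WT by -2.16 and -1.89 in H19Ter and by -1.76 and -0.96 in H19Ter+neo, and Ankle1 beside Ushbp1 by -1.40 and -1.65.

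Gene lists and families were read for the 46 genes, which are 46 of 20643 measured genes. Of 23 gene lists (cell types, imprinting, signalling, stress and others) 2 held any of them, Mei1 in the list of differentiating spermatogonia and meiosis and Ntrk3 in that of FGF and receptor tyrosine kinase signalling. Of 16 gene families 5 did, and the genes they held included Kcnab1 and Scn11a of 115 ion channels, Slc18a2 of 311 solute carriers, Trim34b of 53 tripartite motif genes and Rps3a3 of 178 ribosomal protein genes and pseudogenes. None of the 40 imprinted genes with a value was in the group. At 46 of 20643 genes, lists this short would mostly hold none, so an empty list is no result about the 46.

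The ion channel family is the one with 2 of the 46. In H19Ter against WT, 47 of its 115 genes were higher and 5 lower (limma, adjusted p under 0.05), against 14.1% and 11.0% of all genes, with a median difference of 0.48 against -0.01 for all genes. In H19Ter+neo against WT, 64 were higher and 16 lower, against 27.7% and 26.7% of all genes, with a median of 0.69. Both comparisons share the WT libraries, and the 115 include Kcnab1 and Scn11a, which were chosen by these values. Such a shift was not particular to channels. Of 43 collagen genes, 23 were higher and 3 lower in H19Ter, and 26 and 5 in H19Ter+neo. Of 43 homeobox genes these counts were 17 and 1, and 27 and 6. Neither family held any of the 46. Of 380 zinc finger genes more were lower, with 27 higher and 67 lower in H19Ter, and 84 and 118 in H19Ter+neo. The shares of all genes are not matched for level. In WT replicate 1 the median log2 CPM was 2.84 over all genes. It was 1.09 for channels, 2.10 for collagens, 0.20 for homeobox genes and 4.16 for zinc finger genes. The part of level in these counts was not tested. Cacna1c, described above by its gap, is given with no test and was 1.75 ± 0.14 higher in H19Ter. Cacna1e, the pore of an R-type calcium channel, rose by 1.0 ± 0.15 (adjusted p = 0.0019), whereas the potassium channel Kcnh1 fell by 1.10 (SE 0.13, adjusted p = 0.000799). The 47 became 16 without WT replicate 2, 19 without H19Ter replicate 3 and 23 without H19Ter replicate 4, and the 16 lower became 10 without WT replicate 1 and 8 without WT replicate 2.

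Of the 32 genes of FGF and receptor tyrosine kinase signalling with a value, 9 were higher and 6 lower in H19Ter against WT, beside 14.1% and 11.0% of all genes. In H19Ter+neo 11 were higher and 12 lower, beside 27.7% and 26.7%. The lower genes in H19Ter were 1 without WT replicate 2 or without H19Ter replicate 4, and the higher genes in H19Ter+neo were 7 without WT replicate 2. Beside Ntrk3, Pdgfrb, a receptor for platelet-derived growth factor, was higher by 2.0 ± 0.18 in H19Ter and 1.72 ± 0.16 in H19Ter+neo (adjusted p = 0.000136 and 2.68e-05). Ret, the receptor for GDNF in the germ line, differed from WT by -0.56 ± 0.11 in H19Ter and -1.03 ± 0.10 in H19Ter+neo (adjusted p = 0.00578 and 2.85e-05), and the H19Ter call was lost without WT replicate 2 or H19Ter replicate 4 (adjusted p up to 0.0588). Of the 20 genes of differentiating spermatogonia and meiosis, 3 were higher and 5 lower in H19Ter, and 8 higher and 5 lower in H19Ter+neo, so that the 3 of 20 lie near the 14.1% of all genes and the 5 lower in H19Ter+neo near the 26.7%. The 5 lower in H19Ter were 1 without WT replicate 2, 2 without H19Ter replicate 4 and 3 without WT replicate 1 or H19Ter replicate 3, and the 8 higher in H19Ter+neo were 4 without WT replicate 1. Beside Mei1, the germ cell transcription factor Sohlh1 was higher by 0.78 ± 0.09 and 1.28 ± 0.08 (adjusted p = 0.000731 and 4.78e-06).

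Since many of the 46 are known from other cell types, markers of cells that a testis sort could carry over were read in the same libraries. Leydig cell markers (6 with a value) summed to 13.4 and 17.0 CPM in WT, 28.0 and 12.4 CPM in H19Ter, and 31.7, 8.45 and 6.72 CPM in H19Ter+neo. The mutant libraries thus lay on both sides of WT. Of the 6, 0 had all mutants above WT, against 24.1% of all genes. Interstitial and peritubular markers (14) summed to 418 and 432 CPM in WT, 369 to 437 CPM in H19Ter and 257 to 312 CPM in H19Ter+neo. The sum rests mostly on the strongest genes. Their median was 1.68 and 1.85 log2 CPM in WT, 2.85 and 1.83 in H19Ter, and 2.32, 1.12 and 1.17 in H19Ter+neo. All mutants were above WT in 1 of the 14, against 24.1% of all genes, and below in 1. The share of all genes with all mutants below WT was not counted. Pdgfrb, given above as higher in both mutants, is also in this list. Sertoli cell markers (13) summed to 28.2 and 29.5 CPM in WT and 29.0 to 40.1 CPM in the mutants, with all mutants above WT in 4 of the 13, against 24.1% of all genes, and below in 1. Endothelial markers (7) summed to 62.0 and 69.1 CPM in WT and 56.0 to 67.1 CPM in the mutants. All mutants were above WT in 4 of the 7, against the same 24.1% of all genes, and below in 1. Erythroid markers (2) summed to 2.79 and 3.84 CPM in WT and 2.91 to 6.76 CPM in the mutants.

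Of macrophage and leukocyte markers only 3 had a value, summing to 4.36 and 5.11 CPM in WT and 5.07 to 7.53 CPM in the mutants. Fcgr3, an antibody receptor of myeloid cells, was at -2.59 and -2.24 log2 CPM in WT and -0.59 to 0.56 in the mutants, a gap of more than 1.5 with a mutant mean below 1. Adgre1, which defines macrophages, was below 0 in every library, while Cd68, a lysosomal protein, did not separate the groups at 2.04 and 2.26 in WT and 1.86 to 2.50 in the mutants. In bulk samples fewer cells of a type and less RNA per cell cannot be told apart, and the part of other cells in the levels of the 46 genes was not tested. Leaving out the libraries with the highest Leydig sums, H19Ter replicate 3 and H19Ter+neo replicate 5, a step added after the data were seen, gave 61 genes by the same rule. Leaving out mutant libraries can only keep or widen a gap, so this count does not bear on carry-over.

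**Figure D4:**
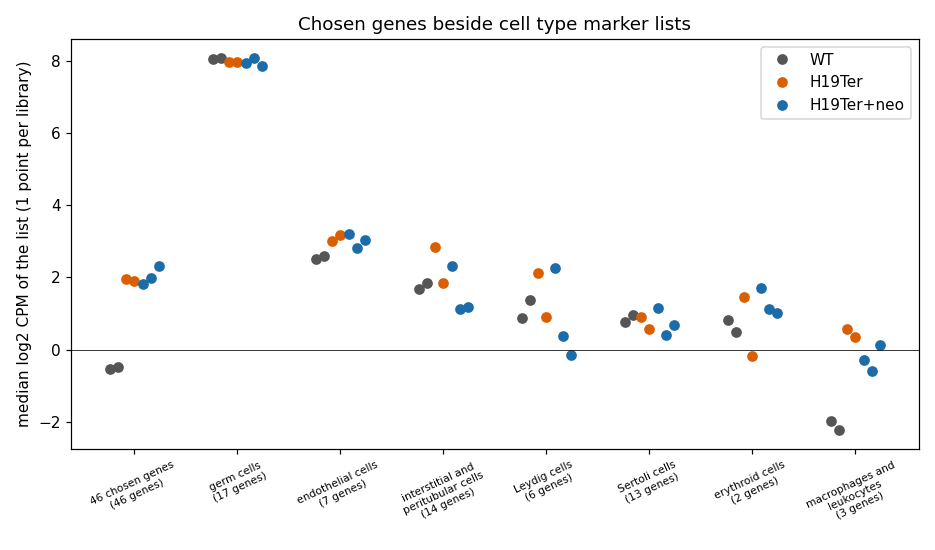
Median log2 CPM of the 46 chosen genes and of 7 marker lists, 1 point per library coloured by genotype, with the number of genes under each list. The chosen genes sit near -0.5 in WT and near 2 in the mutants as the rule set, and germ cell markers near 8 in all libraries. Leydig and interstitial markers vary between libraries of 1 genotype. The median of the 3 macrophage and leukocyte markers is below -1.9 in WT and between -0.59 and 0.56 in the mutants. Cd68, among these markers, did not separate the groups.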

How the data were processed

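Gene values were taken from 7 total RNA-seq libraries (2 WT, 2 H19Ter/H19Ter, 3 H19Ter+neo/H19Ter+neo), grouped by the genotype in the sample labels. The authors trimmed the reads (Trim Galore 0.6.0), aligned them to mm10 (STAR 2.7.8) and counted them per gene. The submitters' notes name deepTools and edgeR too. The deposited values are log2 CPM with a prior count averaging 2 read pairs. Undoing the log and the prior count gave whole read pairs for 100% of values within 1e-06, with totals of 37.5 to 87.3 M. Annotation release and counting strand were stated in no source read.

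The 46 genes, the lists and the naming rule were chosen with earlier results of these data known. Genes named are those with the 25 largest gaps, the 10 highest mutant means, those called between the mutants, those in a list, 3 on either side of the threshold, and up to 4 genes of a list with the smallest p against WT; Rps3a1, Rps3a2, Trim34a and 7 neighbouring genes were named after their values were seen.

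Differences were tested with limma 3.58.1 (R 4.3.3) on the deposited log2 values, with genotype as the factor, all 7 libraries, a mean-variance trend and Benjamini-Hochberg adjustment over 20643 genes, two-sided at 0.05. Requiring 0.1 CPM in 2 libraries removed 0 genes. The fit was tested on simulated data. CPM and RPKM were computed from the recovered read pairs. Positions and exon lengths are from GENCODE vM21 (GRCm38, as mm10), which held 20610 of the IDs. Promoters are the entry listed first for each gene in RefSeq on GRCm38.p6, matched by Entrez ID. Python 3.11.15 and matplotlib 3.10.9 were used.

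Alternatives were other gaps and mean levels, rescaling to the same total or by median ratio, 1 CPM added before logs, 2 genotypes only, no trend, limma-voom, a 2-fold minimum, a mean log2 CPM of at least 1, no filter, and leaving out each library.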

Additional observations from a re-analysis of the deposited data

Results flagged for a closer look

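The difference between the mutants was flagged in 11 of the 46 genes. In these, H19Ter+neo minus H19Ter passed the test across all genes (limma, Benjamini-Hochberg adjusted p under 0.05). The log2 differences were 2.42 in Rps3a3, 1.55 in Phyhip, 1.24 in Gucy2f, 0.84 in Olfr1328, 0.71 in Cd22, 0.70 in Otogl, 0.67 in Xdh, 0.63 in Cyp2c55, 0.62 in Slc18a2, 0.58 in Ttc6 and 0.44 in Pgbd5. In every one the 3 H19Ter+neo libraries were above both H19Ter libraries. The values of both mutants also entered the rule that chose the 46 genes. Groups of 2 and 3 libraries were not tested for a single library that stands apart. A2ml1 had 30336 read pairs in H19Ter replicate 3 and at most 430 in the other mutant libraries.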

How the results depend on the processing

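No paired analysis was possible because the groups share no replicate number. The 46 genes became 156 with a gap of at least 1, 13 with a gap of at least 2, 81 with a mutant mean of at least 0, 15 with one of at least 3, 7 with 1 CPM added before logs, 77 with all names kept, and 44 to 108 with a library left out.

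Between the mutants, the 11 members called higher became 6 with the same total per library, 3 with no trend, 6 with limma-voom, 7 among genes with a mean log2 CPM of at least 1, 3 with a minimum of 2-fold, and 2 to 11 with a library left out, and the 0 called lower became 0 to 1. Over all genes, the 2587 higher became 1665 with no trend, 1554 with limma-voom, 428 with a minimum of 2-fold and 994 to 2454 with a library left out, and the 3130 lower became 468 with a minimum of 2-fold and 1332 to 3090 with a library left out. Leaving out H19Ter replicate 3 and H19Ter+neo replicate 5 together, added after the data were seen, gave 4 members higher, 1034 genes higher and 1516 lower.

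For H19Ter against WT, the 2914 genes higher became 1792 at a mean of at least 1, 1400 with a minimum of 2-fold and 1102 to 3116 with a library left out. The 2273 lower became 1309 with the same total per library, 854 with no trend, 826 with limma-voom, 259 with a minimum of 2-fold and 306 to 2754 with a library left out. For H19Ter+neo against WT, the 5717 higher became 3500 at a mean of at least 1, 2568 with a minimum of 2-fold and 4004 to 5628 with a library left out, and the 5514 lower became 1082 with a minimum of 2-fold and 3726 to 5570 with a library left out. Each of the 11 lost its call under 2 to 8 of up to 16 alternatives. Slc18a2 (adjusted p up to 0.0676), Gucy2f (up to 0.0785) and Phyhip (up to 0.0786) lost it under 2, while Cd22 (up to 0.257) lost it under 8. Gdpd3 was called lower at -1.75 without H19Ter+neo replicate 6, Trim34b at -1.05 without H19Ter+neo replicate 7, and Lrrc46 was called higher without H19Ter+neo replicate 5. A2ml1 changed sign, from -3.45 (-7.09 without H19Ter replicate 4) to 0.19 without H19Ter replicate 3 and to 0.21 without H19Ter replicate 3 and H19Ter+neo replicate 5. Where H19Ter kept 1 library, that library was assumed to vary like the other groups. None of the 11 differences changed sign under any alternative run. Leaving out libraries could not change a sign there, since all H19Ter+neo libraries lay above both H19Ter libraries in each gene. With 2 WT and 2 H19Ter libraries, and WT values of many of the 46 genes under 30 read pairs, small differences are not resolved. The cause of these changes was not tested.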
